A study of Mus musculus with 2 samples.

Results

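The 10 circadian clock genes described here are Arntl (also called Bmal1), Npas2, Per1, Per2, Per3, Cry1, Nr1d1, Dbp, Ciart and Bhlhe41. They were picked by gene symbol, and all 10 were found among the 17260 genes of the deposited count table. The cells were mouse embryonic fibroblasts of strain C57BL/6, taken from embryos of day 13.5 and cultured in DMEM with 10% serum. One library came from wild-type (WT) cells and the other from cells of genotype Ahi1-/-. Ahi1 encodes a protein at the base of the primary cilium. The sources used here do not give the number of embryos behind each culture, the passage, the targeted part of Ahi1 or the hour of harvest. Because each genotype has 1 library, nothing below was tested, no p-value is given, and every interval is a 95% interval for counting error only. The columns headed CON and EXP were read as WT and Ahi1-/-, and each direction rests on that reading.

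The mammalian clock is a feedback loop of transcription that runs in nearly every cell type, cultured fibroblasts included. BMAL1, the product of Arntl, pairs with CLOCK or its paralogue NPAS2 and activates genes through E-box sequences. Among those genes are Per and Cry, whose proteins return to the nucleus and inhibit the pair. A second loop runs through the nuclear receptors NR1D1 (REV-ERB alpha), which represses Arntl and Npas2, and ROR alpha, which activates at the same sequence elements. DBP and its relatives carry the rhythm to further genes through D-box sequences.

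The promoter stretches below show where the letters of these elements lie beside the members in which a match was found. RefSeq windows (build GRCm38.p6) reach from 250 bases before to 50 bases after a start site, and 9 of the 10 members had one. Per2 had no entry. Both strands were searched for the E-box CACGTG, the E-box variant CACGTT, the ROR element half-site AGGTCA, the D-boxes TTATGTAA and TTACGTAA, and the cAMP response element TGACGTCA, and no matches in the members overlapped. Capitals mark the matches.
Ciart, chr3:95882252-95882359, minus strand, E-box: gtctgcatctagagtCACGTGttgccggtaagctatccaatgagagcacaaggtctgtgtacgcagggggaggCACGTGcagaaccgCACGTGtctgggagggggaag
Bhlhe41, chr6:145865548-145865593, minus strand, E-box: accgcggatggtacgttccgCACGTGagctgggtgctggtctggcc
Per1, chr11:69098763-69098808, plus strand, E-box: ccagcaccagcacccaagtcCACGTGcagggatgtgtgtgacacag
Cry1, chr10:85185094-85185148, minus strand, E-box variant on the other strand and E-box: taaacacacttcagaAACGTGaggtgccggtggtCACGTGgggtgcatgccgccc
Nr1d1, chr11:98775380-98775425, minus strand, E-box variant on the other strand: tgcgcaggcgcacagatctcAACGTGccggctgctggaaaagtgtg
Per3, chr4:151044804-151044882, minus strand, D-box: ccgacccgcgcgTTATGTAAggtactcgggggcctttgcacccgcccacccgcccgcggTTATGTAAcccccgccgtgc
Arntl, chr7:113207530-113207559, plus strand, ROR element half-site: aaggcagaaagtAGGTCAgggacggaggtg

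The window of Ciart held 3 copies of the E-box, starting at positions -116, -58 and -44 from the start site. Of all 32851 windows, 7.15% held at least 1 E-box and 0.0883% held 3 or more. Per1, Cry1 and Bhlhe41 had 1 E-box each, so 4 of the 9 members with a window carried it, beside 8.09% of all 27025 genes with a window. These 4 had log2 ratios below 0, as did 7 of the 10 members and 52.6% of all 12075 genes that reached 50 counts in either library. Of the 4, Ciart and Bhlhe41 were at least 2-fold lower. The window of Per3 held 2 D-boxes, which start at positions -205 and -158, and 0.0244% of all windows held 2 or more. The E-box variant was in 4.68% of windows, and in the members it was found for Cry1 and Nr1d1. In 1 of the 2 windows of Arntl the ROR half-site lay just after the start, at positions 32 to 37, and 16.3% of all windows held these letters. Per1 had a half-site as well, at position -137 in the window with its E-box, and its other window held no match. The windows of Npas2 and Dbp held none of the letters searched, and no member held the cAMP response element. A match is a run of letters in a window and no measured binding.

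The WT table column summed to 19067504 expected counts and the Ahi1-/- column to 20820756. Ahi1 itself (gene ID 52906) had 410 and 370 counts, or 9.12 and 8.43 TPM, a log2 ratio of -0.16 (interval -0.37 to 0.05). Its transcripts did not separate the libraries, so the mutant is called the Ahi1-/- labelled library throughout. All 9 fibroblast markers were detected in both libraries, with summed levels of 7672 and 19503 TPM, and 7 of the 9 were at least 2-fold higher in the Ahi1-/- labelled library. Other cell types differed as well. The 5 cartilage markers summed to 936.8 and 53.7 TPM. Col2a1 made up most of that sum, at 851 and 35.2 TPM, while Sox9 differed least, at 19.75 and 15.56 TPM. The 5 red blood cell markers summed to 1312 and 19.8 TPM, the 4 epithelial markers to 16.2 and 39.4 TPM, and the 4 leukocyte markers to 15.3 and 40.9 TPM. Among the leukocyte markers Ptprc was lower, at 0.51 and 0.23 TPM, and 3 were higher, with Lyz2 at 10.2 and 34.2 TPM. The 4 endothelial markers stayed near 0, at 1.11 and 0.74 TPM, and no listed marker was at 0 in either library. The 4 neural markers summed to 49.2 and 106 TPM but went different ways. Tubb3 had 27.1 and 85.3 TPM, Nes 18.5 and 20.5, Sox2 3.66 and 0.45, and Elavl3 0.02 in both. The muscle regulators Myod1 and Myog have no row in the table, while Des and Actc1 summed to 3.05 and 45.4 TPM. The 6 proliferation markers summed to 1459 and 517 TPM, 5 of them at least 2-fold lower in the Ahi1-/- labelled library. In bulk RNA, fewer cells of a type and less RNA per cell cannot be told apart, and the part of these differences in the values of the clock genes was not tested.

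Of the 2 activators among the members, 1 was at least 2-fold higher in the Ahi1-/- labelled library, and of the 7 repressors 3 were at least 2-fold lower and 1 at least 2-fold higher. Npas2 and the repressor Nr1d1 were at least 2-fold higher, 2 of 10 members, beside 16.0% of all 12075 genes that reached 50 counts in either library. Per2, Bhlhe41 and Ciart were at least 2-fold lower, 3 of 10 members, beside 10.3% of all those genes. The other 5 members lay within 2-fold. The median log2 ratio of the 10 was -0.51, against -0.01 over the 14485 genes with at least 10 counts in both libraries together. Without Nr1d1 and Dbp, whose exons overlap another gene of the count table, the median of the other 8 was -0.78. These 8 are not free of overlap. Exons of Bhlhe41 and Arntl share 1280 and 33 bases with the opposite-strand genes Gm43909 and Gm45355, which have no row in the count table. The medians were 2.70 for the 2 activators and -0.93 for the 7 repressors. Their difference was 3.63 (interval 2.75 to 4.63), which no library scaling can alter, and 3.89 without Nr1d1. The activator median lies midway between Arntl at 0.93 and Npas2 at 4.47, which had only 8 counts in WT. Clock, an activator outside the 10 members, had a log2 ratio of -0.04 and is not in that median.

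**Figure D1:**
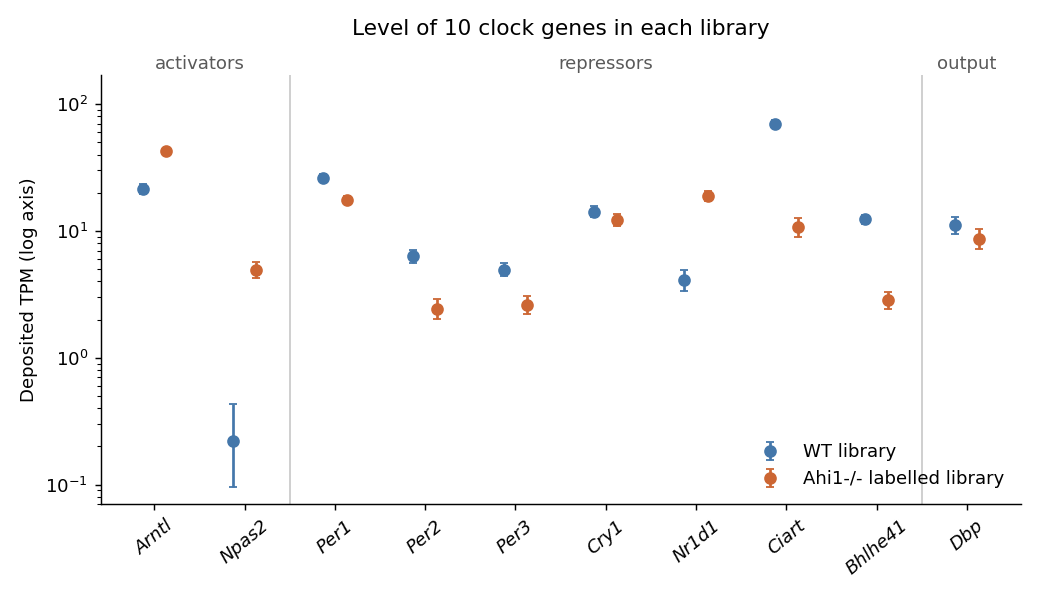
Deposited TPM (log axis) of the 10 clock genes in the WT library (blue) and the Ahi1-/- labelled library (orange), 1 library each, with bars for the 95% counting interval. Arntl, Npas2 and Nr1d1 lie higher in the Ahi1-/- labelled library, and the other 7 members lie lower, with Cry1 and Dbp so close that their bars overlap.

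Of the activators, Arntl (gene ID 11865, chromosome 7), the one indispensable partner of the activating pair, had 528 counts in WT and 1018 in the Ahi1-/- labelled library. Its levels were 21.4 and 42.4 TPM. The scaled counts were 1.91-fold higher in the Ahi1-/- labelled library (interval 1.72 to 2.13), just short of 2-fold. The chromosome 7 genes as a whole had a median log2 ratio of 0.21, and with that subtracted the log2 ratio of Arntl went from 0.93 to 0.72. Its paralogue Arntl2 had 177 and 185 counts, a log2 ratio of 0.05 (interval -0.25 to 0.36).

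Npas2 (gene ID 18143, chromosome 1), which can stand in for CLOCK beside BMAL1, had 8 counts in WT and 179 in the Ahi1-/- labelled library. Its levels were 0.22 and 4.93 TPM. This was the largest ratio among the members, 22.2-fold higher, but the 8 WT counts leave an interval of 11.01 to 52.2. Clock, the usual partner, had 1232 and 1209 counts and nearly equal levels of 13.65 and 13.61 TPM. Npas2 therefore made up 1.59% of the summed TPM of both partner genes in WT and 26.6% in the Ahi1-/- labelled library. The ratio of Npas2 to Clock counts, which does not depend on library scaling, differed 22.8-fold (interval 11.2 to 53.8). Clock remained the more abundant of both in each library.

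The Per genes, which encode the inhibitors that accumulate with each cycle, were all lower in the Ahi1-/- labelled library, by unequal amounts. Per1 (gene ID 18626, chromosome 11) had 1147 counts in WT and 748 in the Ahi1-/- labelled library, or 26.3 and 17.7 TPM, 1.55-fold lower (interval 1.41 to 1.70). Per2 (gene ID 18627, chromosome 1) had 331 and 123 counts, or 6.29 and 2.42 TPM, 2.72-fold lower (interval 2.201 to 3.37). Per3 (gene ID 18628, chromosome 4), the member of the family with the least effect on the rhythm itself, had 270 and 143 counts, or 4.95 and 2.62 TPM. It was 1.91-fold lower (interval 1.55 to 2.35), with a log2 ratio of -0.93 that became -1.04 when libraries were scaled by total counts. That scaling shifts every log2 ratio, the median of all genes included, by -0.11, and 4 members were then at least 2-fold lower.

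Per1 was the main Per transcript in both libraries, with 70.1% of the family's 37.55 TPM in WT and 77.8% of its 22.71 TPM in the Ahi1-/- labelled library. The share of Per2 was 16.8% in WT and 10.7% in the other library, and that of Per3 13.2% and 11.5%. Relative to Per1, Per2 counts were 1.75-fold lower in the Ahi1-/- labelled library (interval 1.39 to 2.22). For Per3 relative to Per1 the factor was 1.23, with an interval of 0.98 to 1.55 that includes no difference.

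Cry1 (gene ID 12952, chromosome 10), a strong inhibitor of the activating pair, had nearly the same level in both libraries. It had 393 counts in WT and 329 in the Ahi1-/- labelled library, or 14.1 and 12.1 TPM, 1.21-fold lower (interval 1.04 to 1.40). Its paralogue Cry2 had 596 and 407 counts, or 16.1 and 11.4 TPM, 1.48-fold lower (log2 ratio -0.56, interval -0.75 to -0.38). Both genes gave about equal parts of the family, Cry1 with 46.8% of the summed TPM in WT and 51.5% in the Ahi1-/- labelled library.

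Nr1d1 (gene ID 217166, chromosome 11) was the repressor that went the other way. It had 104 counts in WT and 469 in the Ahi1-/- labelled library, or 4.09 and 18.9 TPM, 4.47-fold higher (interval 3.61 to 5.58). Its paralogue Nr1d2, the receptor REV-ERB beta, had 750 and 526 counts, or 17.4 and 12.5 TPM, 1.44-fold lower. The more abundant of the pair thus differed by library. Nr1d1 held 19.0% of the summed TPM of both in WT and 60.1% in the Ahi1-/- labelled library, a 6.42-fold difference in their count ratio (interval 5.03 to 8.25). The last exons of Nr1d1 and of Thra, the thyroid hormone receptor alpha gene, lie on opposite strands and share 263 bases in GENCODE M21, and the sources used here do not say whether counting used strand. Thra had 3452 and 2280 counts, lower in the Ahi1-/- labelled library by a log2 ratio of -0.61, the opposite direction to Nr1d1.

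Ciart (gene ID 229599, chromosome 3), whose product CHRONO binds BMAL1 and represses it, had the lowest ratio of the members. It had 917 counts in WT and 144 in the Ahi1-/- labelled library, or 69.9 and 10.7 TPM. The scaled counts were 6.43-fold lower in the Ahi1-/- labelled library (interval 5.38 to 7.71). In log2 terms this was -2.68, or -2.43 after the median of chromosome 3 (-0.26) was subtracted. Among the 12075 genes that reached 50 counts in either library, 1.37% had a lower ratio. This is the gene with 3 E-boxes in the window printed above, and whether they bear on its ratio was not tested.

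Bhlhe41 (gene ID 79362, chromosome 6) encodes DEC2, which represses at E-boxes. It had 689 counts in WT and 154 in the Ahi1-/- labelled library, or 12.3 and 2.83 TPM, 4.51-fold lower (interval 3.79 to 5.41). Its paralogue Bhlhe40, which encodes DEC1, was far more abundant, with 2946 and 2556 counts, or 102.6 and 91.2 TPM, a log2 ratio of -0.22. The share of Bhlhe41 in the summed TPM of both was 10.7% in WT and 3.01% in the Ahi1-/- labelled library, and its count ratio to Bhlhe40 was 3.88-fold lower (interval 3.23 to 4.69).

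Dbp (gene ID 13170, chromosome 7) is the output gene of the set, and its transcript is among the most strongly cycling in many tissues. It had 166 counts in WT and 127 in the Ahi1-/- labelled library, or 11.1 and 8.62 TPM, 1.32-fold lower (interval 1.04 to 1.68). Tef, a relative that binds the same D-box, had 1084 and 737 counts, or 27.4 and 19.2 TPM, 1.48-fold lower. The ratio of Dbp to Tef counts differed by a factor of 1.13, with an interval of 0.87 to 1.45 that includes no difference. Hlf, the remaining relative, had only 2 and 28 counts. The exons of Dbp share 539 bases with those of Sphk2 on the opposite strand, and Sphk2 had 608 and 839 counts, higher in the Ahi1-/- labelled library by a log2 ratio of 0.45.

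**Figure D2:**
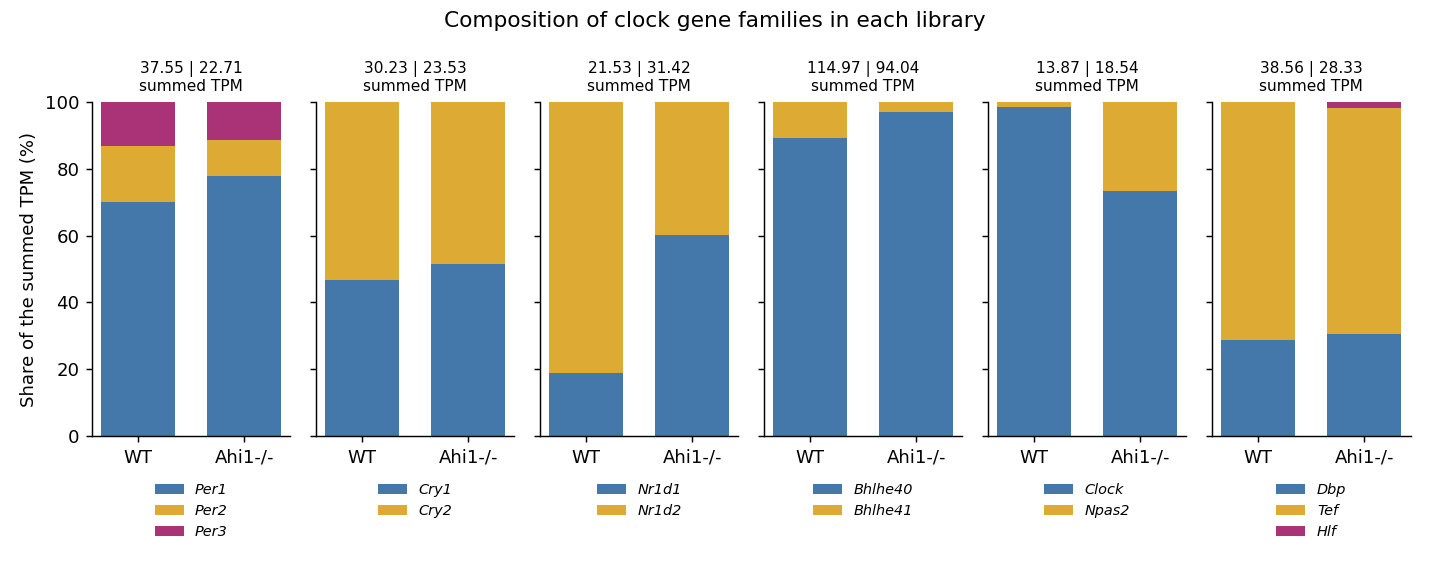
Share of the summed TPM (%) that each gene took in its family, in the WT library (left bar) and the Ahi1-/- labelled library (right bar), with the summed TPM of the family in WT and then in the other library above. Npas2 goes from 1.59% to 26.6% beside Clock and Nr1d1 from 19.0% to 60.1% beside Nr1d2, whereas Cry1 (46.8% and 51.5%) and Dbp (28.8% and 30.4%) take similar shares in both libraries.

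The order of levels within each library was different. On the TPM scale, which is per transcript length, Ciart stood first in WT with 40.9% of the 171 TPM that the 10 members summed to. Per1, Arntl, Cry1, Bhlhe41, Dbp, Per2, Per3, Nr1d1 and Npas2 followed in that order. In the Ahi1-/- labelled library Arntl stood first with 34.4% of 123 TPM. Nr1d1, Per1, Cry1, Ciart, Dbp, Npas2, Bhlhe41, Per3 and Per2 followed. Neighbours in WT whose counting intervals overlapped were Cry1 with Bhlhe41, Bhlhe41 with Dbp, and Per3 with Nr1d1. In the Ahi1-/- labelled library they were Nr1d1 with Per1, Cry1 with Ciart, Ciart with Dbp, Bhlhe41 with Per3, and Per3 with Per2.

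Ratios of 2 members within a library are free of the scaling between libraries. Arntl and Dbp peak at opposite times of the cycle in textbook accounts. There were 1.92 Arntl transcripts for each Dbp transcript in WT, by TPM, and 4.92 in the Ahi1-/- labelled library. From counts, the ratio of Dbp to Arntl was 2.52-fold lower in the Ahi1-/- labelled library (interval 1.94 to 3.28). For Per2 over Arntl the factor was 5.18 lower (interval 4.09 to 6.60), and for Ciart over Arntl 12.3 lower (interval 9.96 to 15.2). Nr1d1 and Ciart, both repressors that BMAL1 activates, parted more than the pairs just named. Ciart was 17.1 times as abundant as Nr1d1 in WT, while Nr1d1 was 1.77 times as abundant as Ciart in the Ahi1-/- labelled library, a 28.6-fold difference in count ratio (interval 21.6 to 38.2). Npas2 with Ciart parted the most of all 45 pairs of members, with a log2 difference in count ratio of 7.15 (interval 6.09 to 8.41). Of the 45 pairs, 42 had a ratio whose counting interval excluded no difference between the libraries. The 3 others were Per1 with Per3, Per1 with Dbp, and Cry1 with Dbp. The same share for pairs of other genes was not calculated, so 42 of 45 is not read as particular to clock genes.

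**Figure D3:**
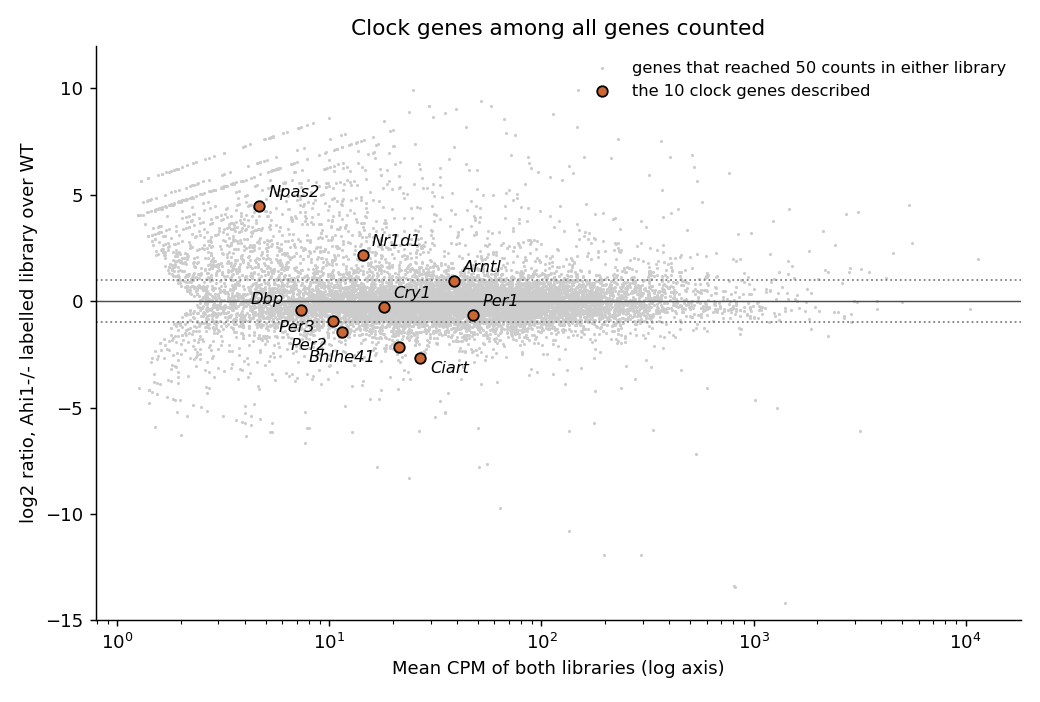
Log2 ratio (Ahi1-/- labelled library over WT) against the mean CPM of both libraries (log axis) for the 12075 genes that reached 50 counts in either library (grey, genes at 0 in 1 library set to a floor of 3 counts) and the 10 clock genes (orange). Dotted lines mark 2-fold. Npas2 and Nr1d1 lie above the upper line, Per2, Bhlhe41 and Ciart below the lower one.

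Most other genes of the clock lay within 2-fold. All 30 other clock genes described were in the table and 27 reached 50 counts in either library. Of these, 1 was at least 2-fold higher in the Ahi1-/- labelled library, 3 were lower and 23 lay within 2-fold, beside 26.4% of all genes at least 2-fold apart in either direction. The median log2 ratio of all 30 was -0.15.

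Rora, which encodes the activator of Arntl in the second loop, was the one at least 2-fold higher. It had 52 counts in WT and 668 in the Ahi1-/- labelled library, or 0.50 and 7.91 TPM, 12.7-fold higher (log2 ratio 3.67, interval 3.26 to 4.11). The activator Rora and the repressor Nr1d1, which act on the same elements, were thus both higher where Arntl and Npas2 were higher. Nr1d1 transcripts outnumbered those of Rora 8.18 to 1 in WT and 2.39 to 1 in the Ahi1-/- labelled library, by TPM. Rorb had 3 and 14 counts.

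Timeless was the lowest of the other clock genes, with 1945 and 413 counts, or 46.6 and 9.74 TPM, 4.75-fold lower in the Ahi1-/- labelled library. Its product also protects the replication fork. The 6 proliferation markers were lower in the same library, with a median log2 ratio of -1.31. They ran from -2.255 (Mcm5) to -0.81 (Cdk1), and Timeless, at -2.248, lay within that range. Nfil3, the repressor at D-boxes, had 1243 and 1321 counts, or 67.1 and 72.6 TPM.

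Of 8 kinase, ubiquitin ligase and protease genes that set the stability of clock proteins, 7 had enough counts. Of these 7, 1 was at least 2-fold apart, beside 26.4% of all genes that reached 50 counts. That gene was Btrc, which encodes a ligase subunit for PER proteins, with 1185 and 577 counts (2.07-fold lower in the Ahi1-/- labelled library). It lies on chromosome 19, whose genes had a median log2 ratio of -0.66, and its own log2 ratio of -1.05 became -0.39 after that median was subtracted. The number of other clock genes at least 2-fold apart, 4, was 3 with upper-quartile scaling or with chromosome medians subtracted, and 6 with a minimum of 10 counts or none, where Rorb and Hlf join. Csnk1d and Csnk1e, the casein kinases that phosphorylate PER, had log2 ratios of 0.41 and 0.08.

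Of 8 genes that carry signals to Per1 and Per2, 1 was at least 2-fold apart, beside 26.4% of all genes that reached 50 counts. Crtc1, a coactivator of CREB, had 1253 and 565 counts (2.24-fold lower in the Ahi1-/- labelled library) and lies on chromosome 8, where the median log2 ratio was -0.40. With that median subtracted, its log2 ratio went from -1.16 to -0.76. Crtc2, its paralogue, had 1483 and 952 counts, 1.57-fold lower. The immediate early genes Fos and Egr1, which serum induces within minutes, had 111 and 137 counts and 1751 and 1577 counts. Their log2 ratios were 0.29 (interval -0.08 to 0.67) and -0.16. Srf, the serum response factor, had 1362 and 2478 counts, 1.80-fold higher. Its log2 ratio of 0.85 became 1.17, past 2-fold, when the median of chromosome 17 was subtracted. Of the 4 rhythmic outputs Wee1, Noct, Por and Tsc22d3, none was 2-fold apart, and their log2 ratios ran from -0.53 to 0.22.

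**Figure D4:**
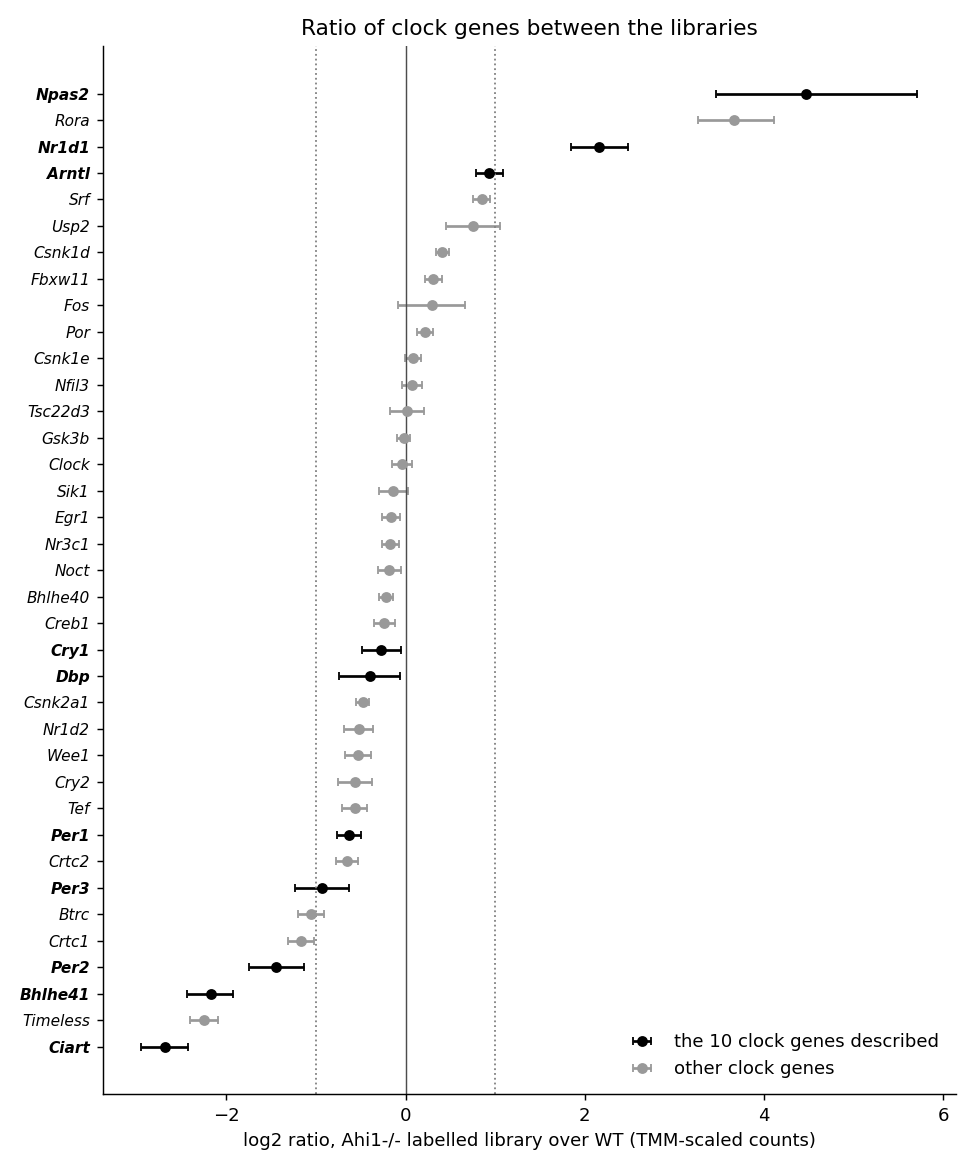
Log2 ratio (Ahi1-/- labelled library over WT, TMM-scaled counts) of the 10 clock genes described (black, bold) and the 27 other clock genes that reached 50 counts in either library (grey), with bars for the 95% counting interval and dotted lines at 2-fold. Of the 37 genes, 9 lie beyond the dotted lines, from Ciart at -2.68 to Npas2 at 4.47. Of all 12075 genes that reached 50 counts in either library, 26.4% were at least 2-fold apart.

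The authors' second table, of FPKM values, lists 3872 genes, and wherever both of its values are above 0 they lie at least 2-fold apart. It holds 6 of the 10 members. Npas2 had 0.11 FPKM in WT and 2.17 in the Ahi1-/- labelled library, and Nr1d1 had 2.01 and 8.30. Lower values in the second library were listed for Ciart (34.3 and 4.68 FPKM), Bhlhe41 (6.06 and 1.24), Per2 (3.09 and 1.06) and Per3 (2.43 and 1.15). Arntl, Per1, Cry1 and Dbp are not among its rows. The members lie on 7 chromosomes, whose median log2 ratios ran from -0.26 to 0.28, and none lies on chromosome 8, 17 or 19, which had the lowest medians.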

How the data were processed

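The authors deposited expected counts and TPM for 17260 genes in 1 table and FPKM for 3872 genes in another, per the file headers. Tools named, without roles, in the submitters' processing notes are RSEM 1.2.12, HISAT2 2.0.4 and Bowtie2 2.2.5, with the build mm8. The sources used here do not give the annotation, the use of strand or filters. All 6 value columns were used.

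Counts were rounded and scaled by TMM (edgeR 4.0.16, R 4.3.3). CPM is relative to the scaled sizes. Ratios carry exact Clopper-Pearson intervals, levels exact Poisson intervals, and ratios of 2 genes exact conditional odds ratio intervals, all at 95%, computed in Python 3.11.15 with scipy 1.17.1. A gene was called at least 2-fold apart only where it reached 50 counts in either library. A gene at 0 was set to a floor of 3 counts. Of all genes, 17210 were matched to GRCm38.p6 by gene ID for chromosomes. The calculation was tested on simulated data that held counting error only. With 1 library per group, only the counting error can be stated, and variation between cultures was not measured.

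The members and lists were chosen with earlier results of these data known. All members and Ahi1 are named, with the paralogues Clock, Cry2, Nr1d2, Bhlhe40, Tef and Hlf and the other clock genes at least 2-fold apart. Arntl2, Fos, Egr1, Srf, Crtc2, Csnk1d, Csnk1e, Nfil3, Rorb, Thra, Sphk2 and the 4 rhythmic outputs were named after their values were seen. Alternatives covered scaling (DESeq2 1.42.0 size factors, total counts, upper quartile), TPM, FPKM, rounding, count minimums and chromosome medians. Of the clock lists, 2 genes were left out of every count and are not reported here.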

Additional observations from a re-analysis of the deposited data

How the results depend on the processing

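No paired analysis was possible because each genotype has 1 library. Of 106 recalculated values, 101 stayed within the counting interval of the reported value or, for counts of genes, within 1.5 times of it. For a median, the interval was taken between the medians of its members' lower and upper limits. No member changed direction under any alternative run. The number of members at least 2-fold higher was 2, and 1 with a minimum of 200 counts, which leaves out Npas2, or without Nr1d1 and Dbp. The last setting was chosen after seeing the data. It gave a median log2 ratio of -0.78 for the members, against -0.51. Subtracting chromosome medians moved Arntl (0.72) and Ciart (-2.43) beyond their intervals. Depth limits Npas2 the most, with 8 counts in WT.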

Other observations

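The count that stands for 1 TPM differed between the libraries for some clock genes. Rora, with 52 WT counts, had 105 counts per TPM in WT and 84.5 in the Ahi1-/- labelled library. Relative to the median of 10724 genes with at least 50 counts in both libraries, this was a log2 shift of -0.28, while the middle 90% of those genes ran from -0.06 to 0.04. Also outside that range were Csnk1d at -0.14, Usp2 at 0.12, Ciart at 0.08, Tsc22d3 at 0.07 and Timeless at 0.06. No transcript-level values were analysed here. Arntl, Per1, Cry1, Nr1d1 and Bhlhe41 were within 0.01 of the median.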
